A study of Mus musculus with 4 samples.

Results

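A set of 9 genes of vitamin A (retinoid) storage and signalling, Lrat, Dhrs3, Rdh10, Aldh1a1, Aldh1a2, Cyp26b1, Cyp26a1, Rara and Rxra, were followed through 4 cell populations of the mouse liver. They are 9 of the 23828 genes with a read in single-cell RNA sequencing of liver cells, freed by pronase and collagenase perfusion and depleted of hepatocytes by a spin at 50 × g, from 4 wild-type male mice aged 8 to 10 weeks. In the CCl4 group, 2 mice had received the liver toxin carbon tetrachloride, mixed 1 to 9 with corn oil and injected into the peritoneum (10 µl for each g of mouse, 2 injections a week for 5 weeks). The 2 corn oil mice received the vehicle alone by the same schedule, and all livers were taken 48 hours after the last injection. Chronic CCl4 is a standard toxic model of liver fibrosis.

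Cells were assigned by counts of UMIs, the molecular tags that mark each captured RNA molecule, for genes outside the retinoid pathway. A stellate cell had at least 10 UMIs of Reln, Colec11 and Ecm1 together, an endothelial cell at least 5 of Kdr, Ptprb and Egfl7, a Kupffer cell at least 5 of Clec4f, and a mesothelial cell at least 3 of Upk3b and Msln. Barcodes that met more than 1 rule were dropped. This left 982 stellate, 16792 endothelial, 873 Kupffer and 45 mesothelial cells of 25861 that passed quality filters. Values below are UMIs per 1000000 UMIs (CPM) of 1 population summed in 1 mouse, always in the order corn oil 1, corn oil 2, CCl4 1, CCl4 2.

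Hepatic stellate cells take up retinol and hold most of the vitamin A of the body as retinyl esters in lipid droplets, a store that they are known to lose when they turn into matrix-producing myofibroblasts. Lrat esterifies retinol for storage. Rdh10 oxidises retinol to retinal and Dhrs3 reduces retinal back to retinol, the Aldh1a enzymes make retinoic acid from retinal, the Cyp26 enzymes break retinoic acid down, and the receptors Rara and Rxra bind DNA as a pair and carry the retinoic acid signal to target genes.

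The members lie at separate places in the genome (GRCm38, GENCODE vM21). Lrat is at chr3:82892579-82903973 on the minus strand, Dhrs3 at chr4:144892827-144928209 on the plus strand, Rdh10 at chr1:16105774-16133734 on the plus strand, and Aldh1a2 at chr9:71215789-71296243 on the plus strand. Aldh1a1 at chr19:20492715-20643465 and Cyp26a1 at chr19:37697798-37701536 share a chromosome and both read from the plus strand. Cyp26b1 is at chr6:84571414-84593908 on the minus strand, Rara at chr11:98927818-98974942 and Rxra at chr2:27676440-27762957, both on the plus strand. Annotated genes overlap Lrat (Rbm46os), Aldh1a1 (C730002L08Rik and Gm6684) and Aldh1a2 (Gm48124) on the opposite strand and Rara (Gm22061) on its own strand, and reads of such pairs cannot be told apart here, since no source used here states whether counting used strand. Aldh1a1 also has a close paralog, Aldh1a7, and no source used here states how reads that match both were treated.

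The start regions of 3 members are shown because these members contrast in level: the stellate storage gene and the 2 clearance enzymes, of which Cyp26b1 was among the abundant endothelial members and Cyp26a1 was close to 0 in every population. Each is 300 bases, from 250 before to 50 after the RefSeq start, GRCm38.p6, written 5′ to 3′ on the strand of the gene; RefSeq starts were matched for 8 of the 9 members, not for Rdh10. Capitals mark a direct repeat of the receptor half-site (each copy AGGTCA or one of the variants AGTTCA and GGGTCA and GGTTCA, on either strand) with 5 bases between the copies, the classical arrangement to which retinoic acid receptor pairs bind.
Lrat, chr3:82903925-82904224, minus strand: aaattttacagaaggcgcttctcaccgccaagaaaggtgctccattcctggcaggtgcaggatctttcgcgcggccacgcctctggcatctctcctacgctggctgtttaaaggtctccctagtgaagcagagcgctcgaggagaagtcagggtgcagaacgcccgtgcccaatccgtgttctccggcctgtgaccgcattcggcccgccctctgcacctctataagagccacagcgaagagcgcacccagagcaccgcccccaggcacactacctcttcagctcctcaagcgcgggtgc
Cyp26b1, chr6:84593761-84594060, minus strand: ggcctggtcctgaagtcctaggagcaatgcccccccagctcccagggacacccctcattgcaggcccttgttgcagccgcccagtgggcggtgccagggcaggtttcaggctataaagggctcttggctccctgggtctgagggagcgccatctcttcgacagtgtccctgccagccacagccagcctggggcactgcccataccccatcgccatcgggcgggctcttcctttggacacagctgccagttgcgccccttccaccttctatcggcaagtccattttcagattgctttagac
Cyp26a1, chr19:37697558-37697857, plus strand: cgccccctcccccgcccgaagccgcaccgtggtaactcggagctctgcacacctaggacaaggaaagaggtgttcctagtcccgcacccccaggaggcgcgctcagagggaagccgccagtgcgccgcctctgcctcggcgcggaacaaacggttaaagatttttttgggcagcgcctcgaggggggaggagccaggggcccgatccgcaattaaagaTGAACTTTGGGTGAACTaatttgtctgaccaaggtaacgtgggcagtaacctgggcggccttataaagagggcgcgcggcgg
The repeat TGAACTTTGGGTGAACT begins at position -32 from the Cyp26a1 start. Repeats of this form were in 1 of the 15 member start regions and in 32 of 32851 start regions of that length (0.0974%). No member start region held a repeat with 1 or 2 bases between copies, forms found in 0.222% and 0.268% of all start regions. A TATAAA sequence was in the Cyp26a1 and Cyp26b1 regions and in 13.6% of all regions, either strand. These are matches of letters within these windows only.

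The depth and purity of the populations differed between the groups. The 4 tables held 45408857 to 55529871 UMIs. Stellate cells had median depths of 4775.5, 4613, 8349 and 8643 UMIs, and Kupffer cells 8685, 7184, 13570.5 and 14505. Of the cells that met the stellate rule, 65.4% and 72.1% in the corn oil mice but 27.3% and 23.6% in the CCl4 mice also met another rule and were dropped. All markers of a population's own list were detected in it, but each list includes the rule genes that were counted to assign the cells. Detection alone does not tell populations apart: endothelial cells of corn oil 2 had UMIs of every marker of every list. Markers of other cells were also present: monocyte and macrophage markers made up 0.527%, 0.930%, 0.157% and 0.437% of stellate UMIs, and Kupffer markers 0.151%, 0.211%, 0.0336% and 0.0522%, against at least 1.66% in Kupffer cells. Stellate results are therefore also given for 130, 108, 339 and 97 cells that had under 2 UMIs of the other rules' genes and under 2 of the leukocyte genes Ptprc, Cd52 and Lyz2, called strictly gated below. Any 2 libraries shared 48 to 74 cell index numbers. The table of CCl4 1 came from a pipeline run of an earlier date than the other 3, per the file headers, so that run and that mouse cannot be told apart.

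**Figure D1:**
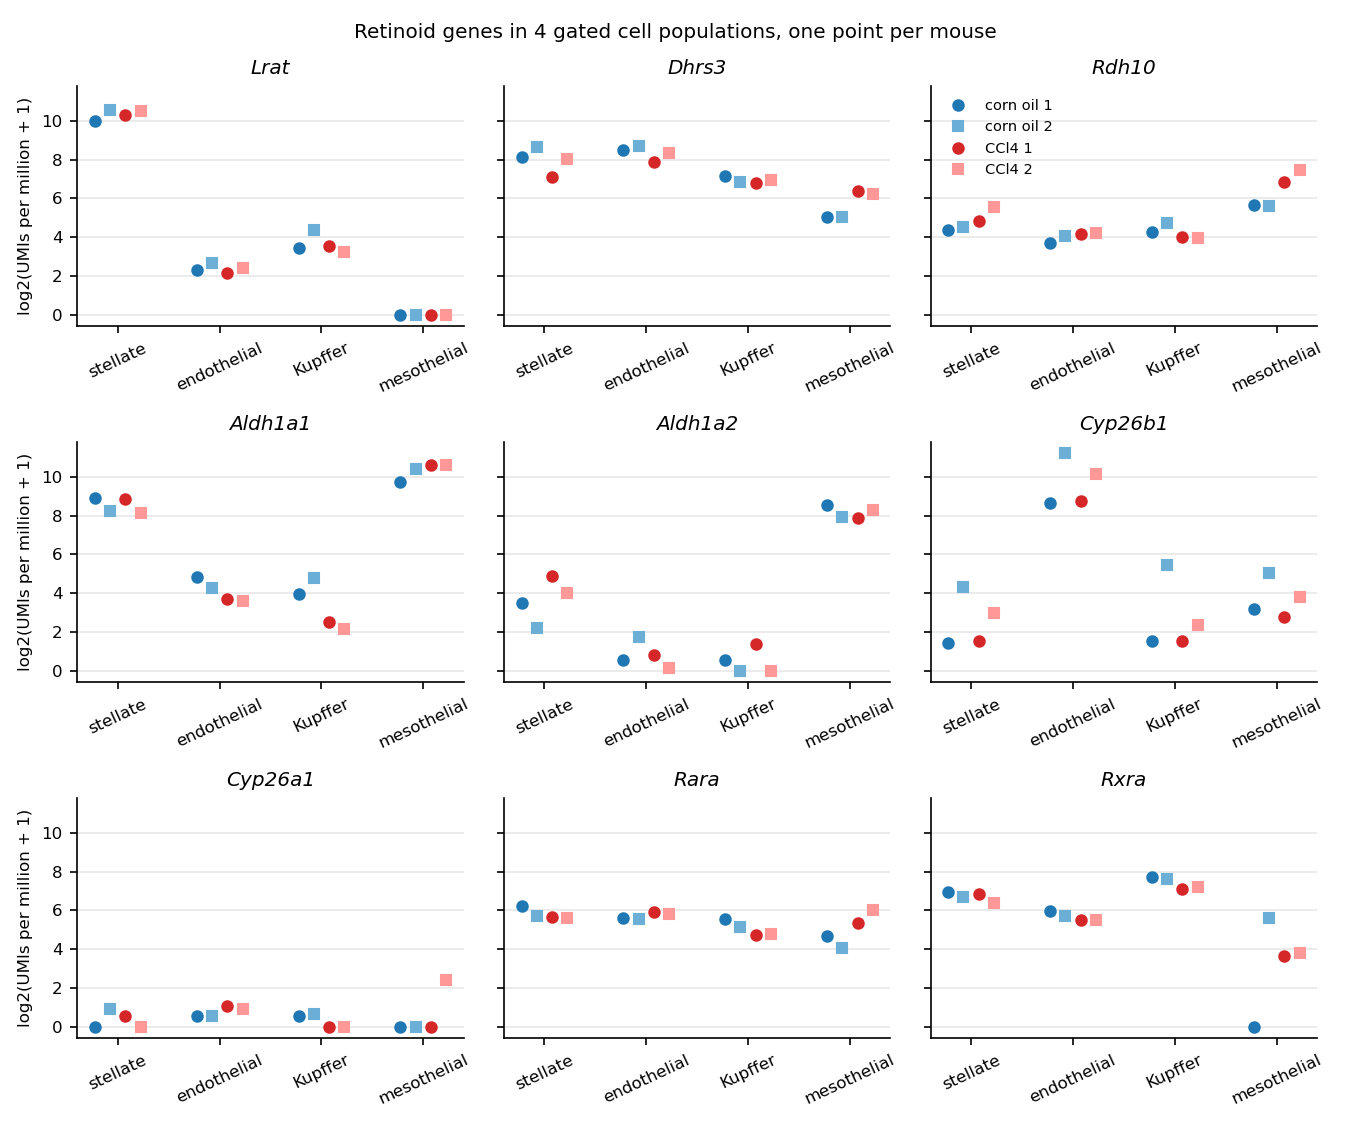
Level of each gene, as log2(CPM + 1), in the stellate, endothelial, Kupffer and mesothelial populations; each point is 1 mouse. Lrat is highest in stellate cells of every mouse, Aldh1a2 is highest in mesothelial cells, Cyp26b1 in endothelial cells, and Cyp26a1 is near 0 throughout.

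The members divided the populations into distinct retinoid profiles. Stellate cells had the storage enzyme Lrat and Aldh1a1. Endothelial cells had Cyp26b1 and Dhrs3, and Dhrs3 was also present in stellate cells. Kupffer cells had the highest Rxra, and mesothelial cells had Aldh1a1, Aldh1a2 and Rdh10 with no Lrat UMI. In a fit over the 12 sums of stellate, endothelial and Kupffer cells with the mouse as a block, 5 of the 8 members tested were higher and 2 lower in stellate than in endothelial cells, where 55.2% of all genes tested differed (26.7% higher, 28.5% lower). Against Kupffer cells, 6 were higher and 1 lower in stellate cells (54.5% of all genes, 29.3% higher and 25.2% lower), and 4 were higher and 2 lower in endothelial than in Kupffer cells (63.0%, 35.6% higher and 27.5% lower). These shares show how far the populations differ across all genes; the member counts are a description beside them. The mesothelial population, with 8 to 16 cells per mouse, was not tested. Its own markers made up 0.312%, 0.767%, 0.482% and 0.381% of its UMIs. Stellate markers made up 0.530%, 0.480%, 0.402% and 0.477%, with 6, 7, 3 and 2 of the 10 at 0 UMIs. Just 1, 4, 4 and 1 of its cells also met the strict gating described above.

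Lrat, the retinol-esterifying enzyme, was at 1033, 1529, 1257 and 1465 CPM in stellate cells. The corn oil mice were both the lowest and the highest, so the groups overlapped. The log2 fold change for CCl4 over corn oil was 0.04 (SE 0.27, adjusted p = 0.958 by edgeR's quasi-likelihood test), on 1222 to 5221 UMIs per mouse. In strictly gated cells the values were 1560, 2735, 1456 and 2168 CPM, a log2 fold change of -0.32 (adjusted p = 0.517), and the groups overlapped again. No loss of Lrat was detected with CCl4 among cells that met the stellate rule, and the sign of its change depended on the choice of cells. The rule genes Reln, Colec11 and Ecm1 were themselves lower in both CCl4 mice among cells with under 0.1% of UMIs from Acta2 and Tagln. Ecm1 was at 6545, 5526, 3546 and 2866 CPM there. Cells that had lost these genes would miss the rule, and their Lrat is not covered by this comparison. A UMI of Lrat was present in 81.4%, 83.7%, 93.2% and 86.6% of stellate cells, and in 71.1%, 79.6%, 78.2% and 79.9% after each cell was thinned to 2000 UMIs (4 of the corn oil 2 cells were too shallow).

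Outside stellate cells Lrat was low. Endothelial cells had 4.03, 5.42, 3.44 and 4.37 CPM and Kupffer cells 10.0, 19.98, 10.6 and 8.62 CPM, which is log2 8.23 (SE 0.15) and 6.71 (SE 0.15) below stellate cells, each with adjusted p of at most 9.7e-10. Kupffer levels were 0.588% to 1.31% of the stellate level, beside 0.377% to 1.62% for Dcn, a secreted proteoglycan of mesenchymal cells, and 7.18% to 11.7% of Kupffer cells had a Lrat UMI. Mesothelial cells had none in 45 cells, where the upper 95% Poisson limit of a count of 0 was 30.1, 59.2, 21.4 and 15.9 CPM. Doubly assigned barcodes held 50.4%, 66.3%, 26.3% and 18.6% of all Lrat UMIs, so the dropped share was larger in both corn oil mice. Cells that met no rule held 0.717%, 0.424%, 3.49% and 10.4%, a share larger in both CCl4 mice. Bco1, which cleaves beta-carotene to retinal, had the profile most like that of Lrat over the 16 population sums (Pearson r = 0.990 on log2(CPM + 1)), followed by the parathyroid hormone receptor Pth1r (0.981) and the signalling protein Bmp5 (0.981). The 16 sums come from 4 mice and 4 cell types and are not independent.

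Among the members that interconvert retinol and retinal, Dhrs3, the retinal reductase, was at 281, 402, 137 and 260 CPM in stellate cells. Both CCl4 mice were below both corn oil mice, but the log2 fold change of -0.84 (SE 0.35) did not pass the test (adjusted p = 0.243). Strictly gated cells had 157, 215, 116 and 211 CPM, and there the groups overlapped and the log2 fold change was -0.28. Without CCl4 2 the log2 fold change was -1.34 and passed (adjusted p = 0.00254), while without corn oil 2 it was -0.48 and without CCl4 1 -0.44. In endothelial cells Dhrs3 was at 362, 416, 238 and 327 CPM, on 6218 to 10968 UMIs. Both CCl4 mice were again lower, with a log2 fold change of -0.53 (SE 0.17) that did not pass (adjusted p = 0.0990); DESeq2 called it (adjusted p = 0.0363). Kupffer cells had 143, 112, 108 and 121 CPM, log2 1.38 (SE 0.16) below endothelial cells, with overlapping groups. Endothelial cells also exceeded stellate cells, by log2 0.40 (SE 0.15, adjusted p = 0.0486). The stellate level was 77.7%, 96.7%, 57.7% and 79.6% of the endothelial level. The size of this gap depended on the gating: strictly gated endothelial cells had 369, 425, 231 and 325 CPM, against the lower strictly gated stellate values above.

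Rdh10, the retinol dehydrogenase, was a low-level gene with 19.4, 22.4, 27.7 and 46.2 CPM in stellate cells. Both CCl4 mice were higher, on only 23 to 115 UMIs, and the log2 fold change of 0.74 (SE 0.34) did not pass the test (adjusted p = 0.294). Strictly gated cells had 27.0, 31.3, 29.6 and 38.8 CPM, where the groups overlapped and the log2 fold change was 0.13 (adjusted p = 0.843), while with stellate-endothelial joint cells kept it was 0.95 and passed (adjusted p = 0.0376). Endothelial cells had 11.98, 15.6, 17.3 and 17.5 CPM and Kupffer cells 18.1, 25.9, 15.4 and 14.4 CPM. The direction of the difference was opposite in these cell types and neither change passed (adjusted p = 0.410 and 0.175). Mesothelial cells had 48.9, 48.1, 116 and 176 CPM on 3 to 41 UMIs, the highest level of the 4 populations in every mouse.

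The retinal-oxidising enzyme Aldh1a1 was at 474, 298, 455 and 279 CPM in stellate cells, with overlapping groups and a log2 fold change of -0.10 (SE 0.31, adjusted p = 0.897). In strictly gated cells it was at 721, 578, 534 and 393 CPM, where both CCl4 mice were lower and the log2 fold change of -0.54 did not pass (adjusted p = 0.101). Mesothelial cells held more in every mouse, with 856, 1331, 1578 and 1535 CPM. The level in stellate cells exceeded that in endothelial cells by log2 4.48 (SE 0.19) and in Kupffer cells by 5.25 (SE 0.24). C1ra, a complement protease, had the most similar profile (r = 0.985).

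In endothelial cells Aldh1a1 fell with CCl4, but the call was lost once the top cell of each mouse was removed. The values were 27.9, 18.2, 12.05 and 11.0 CPM, with a log2 fold change of -1.06 (SE 0.23, adjusted p = 0.0362), the 1 member called of 9 tested, where 8.95% of all endothelial genes were called (5.19% higher, 3.76% lower). A single barcode of corn oil 1 held 428 of that mouse's 846 Aldh1a1 UMIs. It carried 1395 UMIs of the hepatocyte product Alb, and 945 of Glul and 919 of Cyp2e1, products of hepatocytes near the central vein. It had just 4 of Kdr and 2 of Ptprb. Without the top cell of each mouse the values were 13.8, 16.4, 10.3 and 8.80 CPM and the change was no longer called (log2 -0.72, adjusted p = 0.0734). The call was also lost without corn oil 1 (log2 -0.72, adjusted p = 0.0879), CCl4 1 (-1.19, 0.151) or CCl4 2 (-0.96, 0.146), and with cells thinned before gating (-0.48, 0.272). Stricter gating, which uses no hepatocyte genes, gave -1.44 (adjusted p = 0.0447), but 689 Aldh1a1 UMIs of corn oil 1 remained there, so that barcode was still included.

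In Kupffer cells Aldh1a1 was scarce and also fell: 14.8, 26.4, 4.83 and 3.51 CPM, on 31, 45, 15 and 11 UMIs. Both CCl4 mice were below both corn oil mice, with a log2 fold change of -2.36 (SE 0.42, adjusted p = 0.00851). The top cell of each mouse held 3 to 6 UMIs, and the call held when each mouse was left out in turn (log2 -2.75 without corn oil 1 and -1.845 without corn oil 2 at the extremes), while cells thinned before gating gave -1.28 (adjusted p = 0.207). In all, 2 members were called of 7 tested in Kupffer cells, Aldh1a1 and Rxra, both lower, where 14.8% of all genes were called (7.45% higher, 7.33% lower). The fall of Aldh1a1 was larger in Kupffer than in stellate cells by log2 2.33 (adjusted p = 0.0430), the 1 member called in that comparison of effects, where 3.03% of all genes were called (1.76% higher, 1.27% lower). It was lost without corn oil 2 (1.56), CCl4 1 (2.20) or CCl4 2 (2.43). Conventional dendritic cell markers made up 0.0947%, 0.218%, 0.0495% and 0.0341% of Kupffer UMIs and stellate markers 0.0363%, 0.0395%, 0.0230% and 0.0188%, both higher in the corn oil mice. Kupffer Aldh1a1 was 3.11%, 8.88%, 1.06% and 1.26% of the stellate level, beside 1.20%, 1.62%, 0.688% and 0.377% for Dcn, which was also lower in the CCl4 mice. Kupffer cells with under 2 UMIs of the other rules' genes had 14.7, 24.3, 1.20 and 1.18 CPM of Aldh1a1. These came from 11, 17, 2 and 2 UMIs, so both CCl4 values were below the floor of 3 counts. The part of other cells' RNA in the result was not tested.

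**Figure D2:**
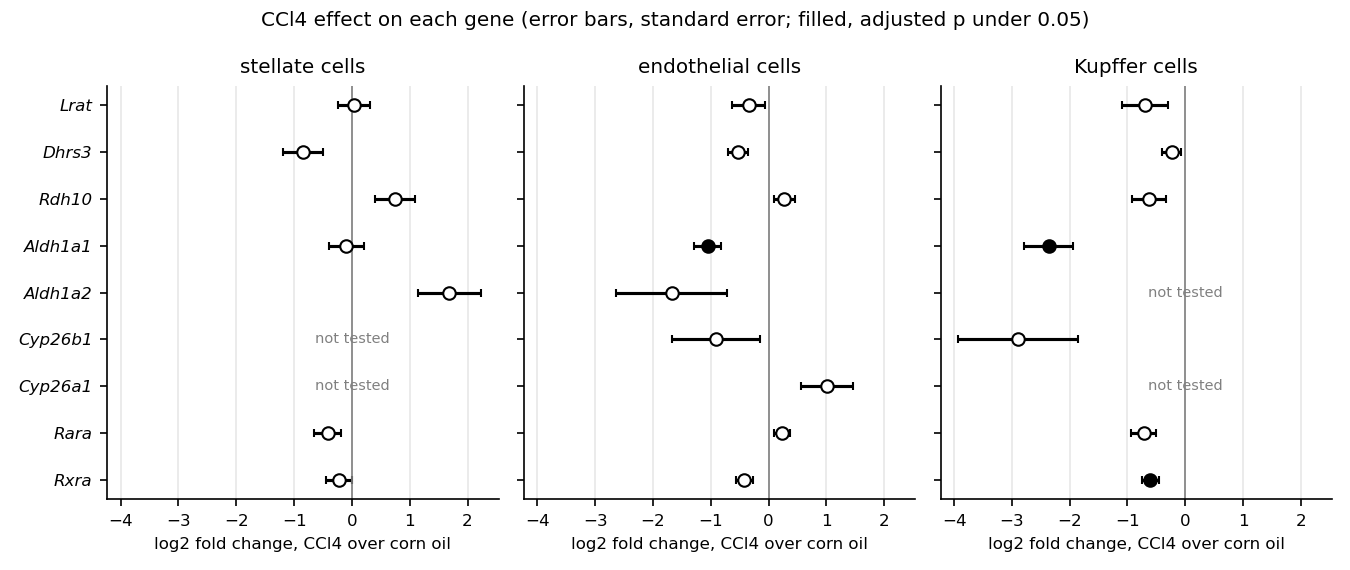
log2 fold change of each gene, CCl4 over corn oil, in stellate, endothelial and Kupffer cells (2 mice per group); bars are standard errors from edgeR and filled points have an adjusted p under 0.05. The filled points are Aldh1a1 in endothelial cells at -1.06 and, in Kupffer cells, Aldh1a1 at -2.36 and Rxra at -0.60.

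Aldh1a2, the other retinoic acid-forming enzyme measured, had the largest log2 fold change of the 7 members tested in stellate cells. It was at 10.1, 3.58, 28.9 and 15.2 CPM, from 12, 4, 120 and 22 UMIs. Both CCl4 mice were higher, and the log2 fold change of 1.69 (SE 0.54) did not pass the test (adjusted p = 0.151); none of the 7 members tested passed in stellate cells, where 3.48% of all genes did (1.78% higher, 1.69% lower). In edgeR, 2 members had an unadjusted p under 0.05 (Dhrs3 and Aldh1a2), as did 1930 of the 9582 genes tested. DESeq2 called 0 members. Of the 12 UMIs in corn oil 1, 11 lay in 1 cell. Strictly gated cells had 0 UMIs in both corn oil mice and 75 and 15 in the CCl4 mice (28.8 and 18.8 CPM), at least 2.995-fold higher when the lower CCl4 value is set against 3 counts in the shallower corn oil library. That difference was called (adjusted p = 0.00458), as it was with a stellate rule of 5 UMIs of Reln and Colec11 without Ecm1, where the corn oil mice again had 0 UMIs and the CCl4 mice 28.9 and 17.7 CPM (adjusted p = 0.00262). With the main rule it was called without CCl4 2 (log2 2.05, adjusted p = 0.00254) but not without corn oil 1 (2.58, 0.170), corn oil 2 (1.21, 0.465) or CCl4 1 (1.09, 0.592). With the stellate rule at 5 UMIs it was 0.87 (adjusted p = 0.597), and in contractile-low cells alone it was 0.51 (adjusted p = 0.738). After thinning before gating, 12 UMIs remained in CCl4 1 and 0 in the other 3 mice.

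**Figure D3:**
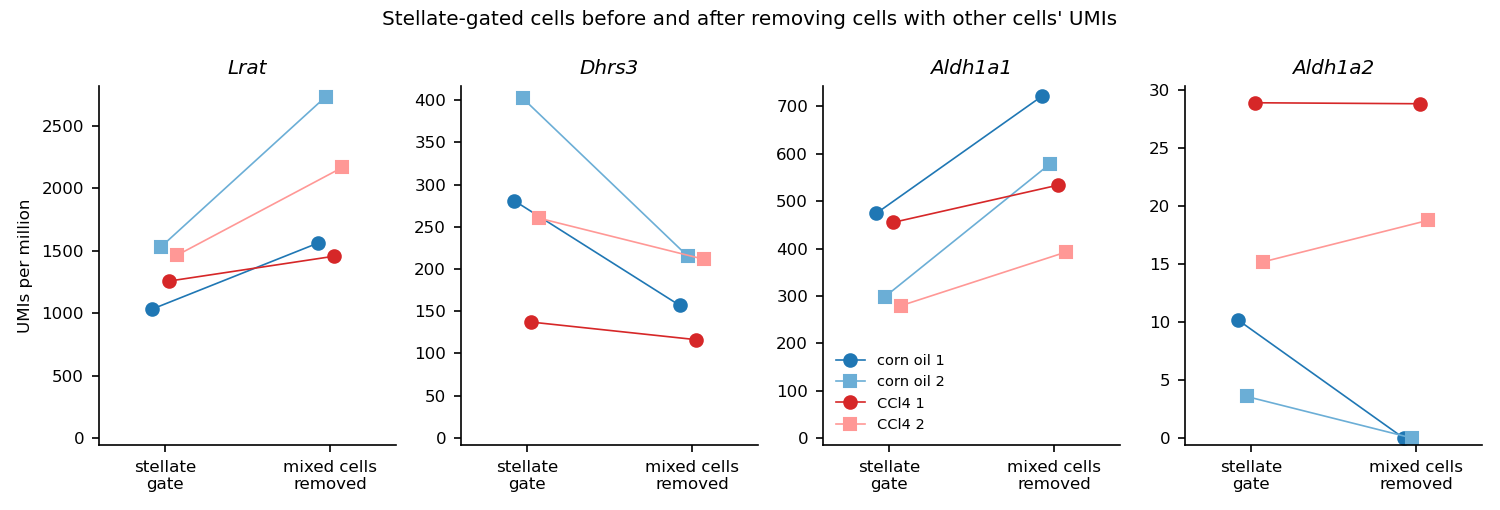
CPM of Lrat, Dhrs3, Aldh1a1 and Aldh1a2 in stellate cells as gated and after removal of cells with UMIs of other cell types; each line is 1 mouse. Aldh1a2 goes to 0 in both corn oil mice and stays at 28.8 and 18.8 in the CCl4 mice, and Dhrs3 values of the groups come to overlap.

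Stellate cells were divided by Acta2 and Tagln, smooth muscle genes that myofibroblasts switch on. Cells with at least 0.1% of their UMIs from both genes together, called contractile-high, made up 5.15% and 4.82% of stellate cells in the corn oil mice (10 and 8 cells) and 43.6% and 28.9% in the CCl4 mice (206 and 43 cells). Aldh1a2 was at 50.6 CPM in contractile-high and 11.3 CPM in contractile-low cells of CCl4 1 (95% counting intervals 40.9 to 61.9 and 7.40 to 16.6), and at 27.7 and 9.19 CPM in CCl4 2 (14.7 to 47.3 and 4.20 to 17.4). Only 8.67% and 6.04% of the stellate cells of these mice had an Aldh1a2 UMI. The summed level was higher in the contractile-high cells of both mice. Lrat was lower in them, at 1057 against 1419 CPM in CCl4 1 and 1337 against 1526 CPM in CCl4 2, yet remained the most abundant member shown in contractile-high cells. Genes of the stellate rule were lower there too, Colec11 at 1361 against 1915 and at 756 against 1491 CPM, and Ecm1 at 2726 against 3546 and at 1533 against 2866 CPM; their part in the Lrat difference was not tested. Dhrs3 was at 128 against 145 CPM and at 200.2 against 289 CPM, and Aldh1a1 at 448 against 461 and at 300.3 against 269 CPM. Intervals cover counting error only, and no test was made at 0.1%, where 2 mice had at least 20 cells in each class. At 0.05%, 3 mice did: Aldh1a2 was higher in contractile-high cells by log2 1.98 (SE 0.50, adjusted p = 0.0270), the 1 member called of 7 tested, where 7.5% of all genes were called. The direction was that of the 2 CCl4 mice: corn oil 1 had 0 Aldh1a2 UMIs in 21 contractile-high cells and 12 in contractile-low cells. Lrat differed by log2 -0.13 (SE 0.16, adjusted p = 0.777).

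**Figure D4:**
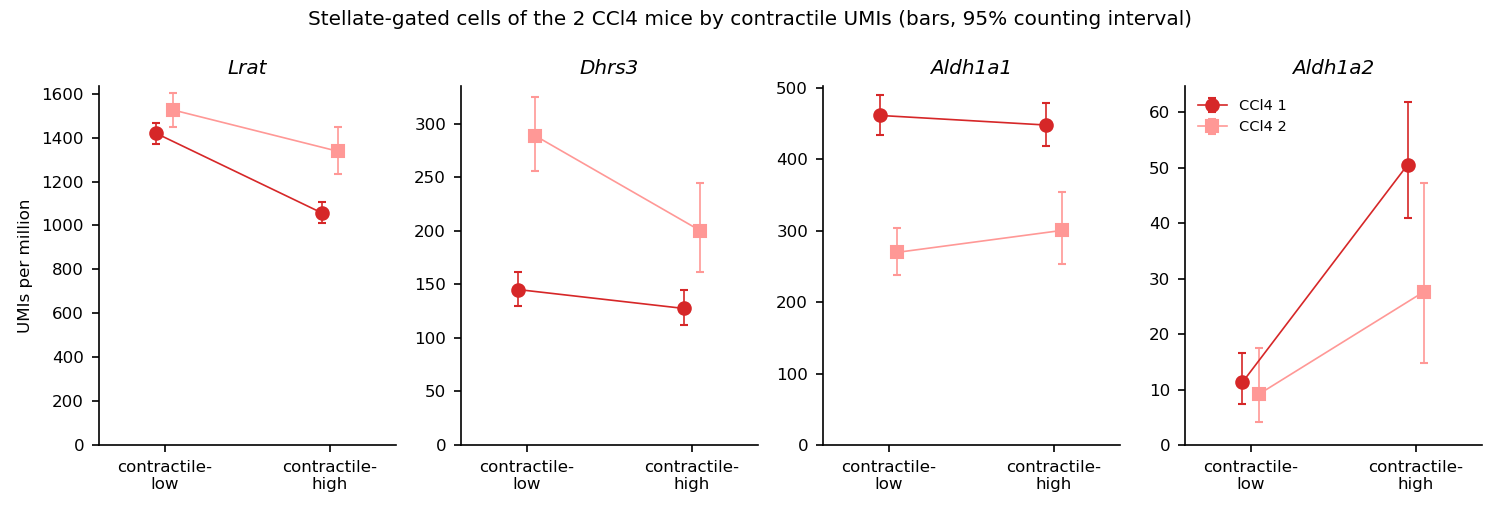
CPM of 4 genes in contractile-low and contractile-high stellate cells of the 2 CCl4 mice, with 95% Poisson intervals. Aldh1a2 is at 50.6 against 11.3 and at 27.7 against 9.19, while Lrat is lower in contractile-high cells of both mice.

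Among the other gated populations Aldh1a2 was high in mesothelial cells. These had 375, 241, 238 and 310 CPM from 15 to 72 UMIs and overlapping groups. The top cell of each mouse held 50%, 46.7%, 26.8% and 20.8% of these UMIs. Endothelial cells had at most 2.35 CPM and Kupffer cells at most 1.61 CPM. Many Aldh1a2 UMIs lay outside the 4 populations: doubly assigned barcodes held 51.7%, 37.8%, 21.7% and 18.8% of them, and cells that met no rule 23.3%, 15.1%, 34.0% and 34.8%. The gene whose profile was most like that of Aldh1a2 over the 16 sums was Cdh11, a cadherin of mesenchymal cells (r = 0.986), followed by Bicd1 (0.978) and the matrix protein Fbln1 (0.973).

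Of the enzymes that break down retinoic acid, Cyp26b1 was endothelial and Cyp26a1 was hardly detected. Cyp26b1 in endothelial cells was at 402, 2403, 426 and 1149 CPM, from 11143 to 63375 UMIs. The groups overlapped, with the highest value in corn oil 2 and the lowest in corn oil 1. The log2 fold change of -0.92 (SE 0.76, adjusted p = 0.507) became 0.89 without corn oil 2, and without corn oil 1 it was -1.69 and passed (adjusted p = 0.0353). The spread between mice of 1 group was large for this gene: corn oil 2 exceeded corn oil 1 by 5.97-fold, the 20th largest difference among 10007 genes with at least 200 UMIs in that pair, and CCl4 2 exceeded CCl4 1 by 2.70-fold, the 38th among 9844 genes, where the median absolute difference was log2 0.18 in each pair. After thinning to 2000 UMIs, 41.5%, 90.1%, 39.3% and 65.8% of endothelial cells had a Cyp26b1 UMI, with the mice in nearly the same order as by level.

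Corn oil 2 and then CCl4 2 were also highest within endothelial zones. Cells with at least 2 UMIs of the pericentral genes Wnt2, Wnt9b and Rspo3 and none of Dll4, Efnb2 and Ltbp4 had 643, 2777, 531 and 2247 CPM of Cyp26b1, and cells with the reverse pattern, called periportal-type, had 342, 2299, 329 and 867 CPM. Within each mouse the pericentral-type cells were higher than the periportal-type cells. The same held for Dhrs3, with 550.3, 692, 377 and 602 CPM in pericentral-type against 291, 345, 181 and 249 CPM in periportal-type cells. Cells of neither class, 54.5%, 46.9%, 38.1% and 33.7% of endothelial cells, had 428, 2475, 528 and 1440 CPM of Cyp26b1. In CCl4 1 this was close to the pericentral-type level. The pericentral-type class held 138 to 228 cells per mouse, or 3.75% to 5.29%, and the periportal-type class 41.2% to 61.6%. The classes were defined after the data had been seen, and these levels were not tested.

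**Figure D5:**
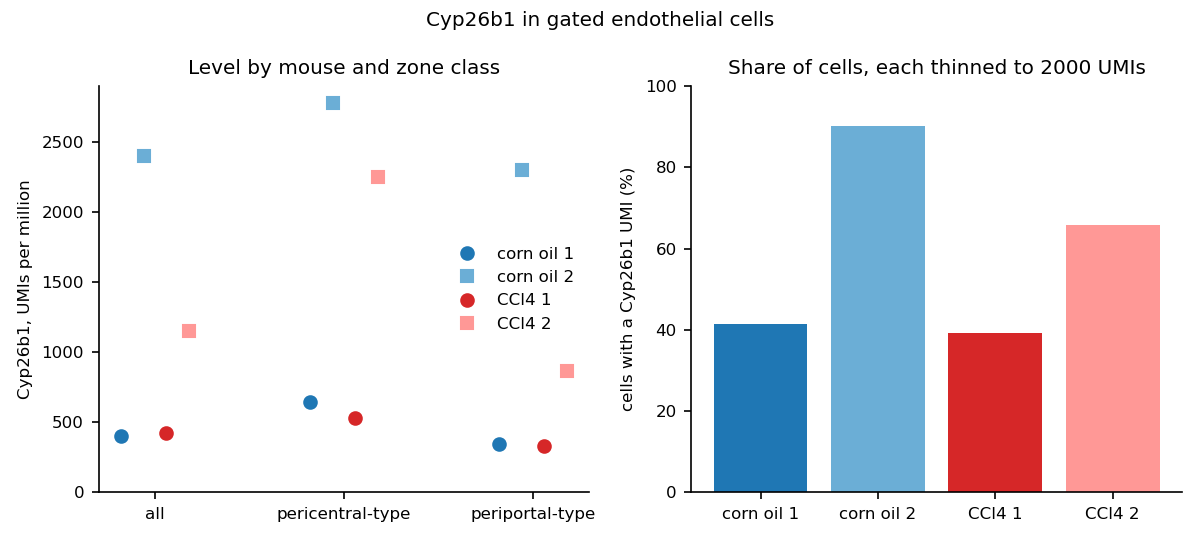
Cyp26b1 in endothelial cells: CPM in all, pericentral-type and periportal-type cells (left), and percent of cells with a UMI after thinning to 2000 UMIs per cell (right), by mouse. Corn oil 2 is highest at 2403 and 90.1%, and corn oil 1 and CCl4 1 are lowest at 402 and 426.

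In the other populations Cyp26b1 followed the endothelial level of the same mouse. Stellate cells had 1.69, 18.8, 1.93 and 6.90 CPM, which is 0.420%, 0.781%, 0.452% and 0.601% of the endothelial level, beside 0.639%, 1.18%, 0.536% and 0.210% for the endothelial scavenger receptor Stab2. Kupffer cells had 1.91, 42.3, 1.93 and 4.15 CPM, 0.361% to 1.76% of the endothelial level. Stab2 in Kupffer cells was at 9.02%, 9.74%, 9.38% and 10.9% of its endothelial level, above the share of Cyp26b1 in every mouse. The low Cyp26b1 levels in stellate and Kupffer cells are not read as expression, and their source was not tested. Cyp26a1, whose start region carries the direct repeat printed above, had 26 to 48 UMIs per mouse over all cells kept, and at most 1.11 CPM in stellate, endothelial and Kupffer cells. Endothelial cells had 0.462, 0.493, 1.11 and 0.883 CPM from 13 to 29 UMIs; both CCl4 mice were higher, and the log2 fold change of 1.00 (SE 0.45) did not pass (adjusted p = 0.218).

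Both receptors were detected in stellate, endothelial and Kupffer cells of every mouse, while mesothelial Rxra (0, 3, 2 and 3 UMIs) was never above the floor of 3 counts. Rara was at 75.3, 51.9, 49.8 and 47.6 CPM in stellate, 48.4, 45.9, 59.8 and 55.9 CPM in endothelial and 46.2, 34.7, 25.7 and 26.2 CPM in Kupffer cells. Stellate and endothelial levels did not differ beyond their spread (log2 0.06, SE 0.10), and Kupffer cells were lower than both by 0.70 and 0.64. In stellate cells both CCl4 mice were lower, without a call (log2 -0.42, adjusted p = 0.377), and strictly gated cells had 81.1, 75.2, 47.2 and 48.8 CPM (-0.77, adjusted p = 0.0578). Its CCl4 change was positive in endothelial cells (log2 0.24, adjusted p = 0.339) and negative in Kupffer cells (-0.72, SE 0.22, adjusted p = 0.0537), and neither passed. The difference between these 2 changes did, at log2 0.92 (adjusted p = 0.0447), the 1 member called where 3.36% of all genes were (2.38% higher, 0.979% lower); it was lost without any 1 of the mice (0.76, 1.07, 0.86 and 0.99 without corn oil 1, corn oil 2, CCl4 1 and CCl4 2). No member was called in the comparison of stellate with endothelial changes, where 4.73% of all genes were, 1.84% higher and 2.89% lower (2136 of 12158 genes had an unadjusted p under 0.05 in edgeR, and DESeq2 also called 0 members).

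Rxra, the shared partner receptor, was highest in Kupffer cells, at 213, 195, 136 and 148 CPM. Both CCl4 mice were lower, and Rxra fell by 0.60 on the log2 scale (SE 0.14, adjusted p = 0.0237). The call was lost in DESeq2 (adjusted p = 0.0676), with stricter gating (log2 -0.40, adjusted p = 0.172), and without corn oil 1 (-0.56), CCl4 1 (-0.55) or CCl4 2 (-0.64). Stellate cells had 123, 102, 114 and 82.1 CPM with overlapping groups, log2 0.77 (SE 0.11) below Kupffer cells. Their CCl4 change was log2 -0.22 (adjusted p = 0.645), and in strictly gated cells, at 167, 157, 131 and 106 CPM, both CCl4 mice were lower without a call (-0.49, adjusted p = 0.136). Endothelial cells had 62.1, 51.5, 44.1 and 44.4 CPM, log2 1.82 (SE 0.11) below Kupffer cells. In endothelial cells both CCl4 mice were lower, without a call (log2 -0.42, adjusted p = 0.128). Lpin2, a lipid phosphatase, had the profile most like that of Rxra (r = 0.958), and the transcription factor Cebpa followed (0.940).

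The other genes of the pathway, 80 in 6 lists of uptake, storage, oxidation, clearance, receptors and target genes, were tested in the same fits, and their counts are read beside the share of all genes called. In Kupffer cells 7 rose and 4 fell of 41 tested, where 7.45% of all genes rose and 7.33% fell (median log2 -0.20, against -0.01 over all genes). Among uptake and storage genes, Cd36, a fatty acid receptor, rose from 205 and 243 to 1247 and 1191 CPM (log2 2.36, SE 0.17), and Lpl, a lipase that also hydrolyses retinyl esters, from 1192 and 1093 to 4392 and 4250.2 CPM (1.84, SE 0.16). The droplet coat genes Plin2 (1.61) and Plin3 (0.82), the binding protein Fabp5 (2.07), the RXR partner Pparg (1.55) and the transglutaminase Tgm2 (1.09) also rose. Pnpla2, a lipase of stored lipid, fell from 301 and 205 to 53.7 and 57.8 CPM (log2 -2.26), and Mgll (-2.18) and the carotenoid-cleaving Bco2 (-0.83) were also among those that fell. All 11 kept their direction in each of the 4 fits that left out 1 mouse. Calls held for 7 of the 11 in DESeq2 and for 7 of the 9 with a value after thinning before gating. Under stricter gating 9 of the 11 had a value and 6 were called. Fabp5 (log2 0.73, adjusted p = 0.374), Bco2 (-0.60, 0.305) and Plin3 (0.64, 0.0936) were not called there.

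In endothelial cells 8 of the 63 other genes tested rose and 2 fell, where 5.19% of all genes rose and 3.76% fell (median log2 0.05, against 0.01 over all genes). Pparg rose from 8.32 and 5.99 to 32.6 and 25.8 CPM (log2 1.97, SE 0.23, adjusted p = 0.00542). The receptors Cd36 (0.59) and Lrp1 (1.38), Nr1h3 (1.38), an RXR partner that senses oxysterols, Rdh1 (2.37, on 15 and 66 UMIs per group), Tgm2 (0.88) and Tgif1 (0.90) were also among those that rose. Dhrs7 (-0.77) and the coactivator Ncoa3 (-0.82) fell. Without CCl4 1 the call held for Pparg alone (log2 1.73), and without corn oil 1, corn oil 2 and CCl4 2 for 6, 5 and 6 of the 10. Under stricter gating Lrp1 (0.77, adjusted p = 0.416), Nr1h3 (0.76, 0.307), Tgif1 (0.38, 0.249) and Rdh1 (2.21, 0.0529) were not called. Monocyte and macrophage markers made up 0.0204%, 0.0599%, 0.0947% and 0.0873% of endothelial UMIs, higher in both CCl4 mice; their part in these results was not tested.

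In stellate cells 1 of the 45 other genes tested was called, a share no higher than the 3.48% of all genes. Hic1, a transcriptional repressor listed among genes that respond to retinoic acid, rose from 73.6 and 59.9 to 187 and 134 CPM (log2 1.24, SE 0.24, adjusted p = 0.0471), and the call was lost when either corn oil mouse or CCl4 1 was left out. The Hic1 call was also lost in contractile-low cells alone and after removal of cells with at least 5 UMIs of the fibroblast genes Pi16, Cd34, Dpt, Clec3b and Thy1. Thinning before gating, a limit of 15% mitochondrial UMIs and a stellate rule of 5 UMIs lost it too, with the direction kept. The median of the 45 genes was log2 -0.23, against -0.01 over all genes. Among lists, all 7 uptake genes, 8 storage genes and 16 receptor and coregulator genes tested, members included, missed the threshold, and their medians were log2 -0.55, -0.48 and -0.23. The whole list of target genes, 11 tested, had a median of log2 0.27.

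Since fewer cells of a type and less RNA per cell can both lower a summed level, the CPM values describe the composition of the RNA of each population and not amounts per liver. The labels place all 4 mice in 1 batch. P-values of the CCl4 fits set a change against the variation between mice of a group. EdgeR estimates that variation from 2 mice a group with information shared across genes. In fits with the mouse as a block, differences between mice are taken out and the remaining variation is used.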

How the data were processed

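Single-cell RNA sequencing libraries of liver nonparenchymal cells from 4 mice (BD Rhapsody) were analysed. Per the file headers, the deposited values are counts of UMIs per cell and gene, made with the BD WTA Rhapsody Analysis Pipeline 1.9.1 on GRCm38 with GENCODE vM19; no source used here names the aligner. Cells were kept if 200 or more genes had a UMI and mitochondrial UMIs made up 25% or less; no doublet caller was run, since barcodes meeting more than 1 gate were dropped. Counts were summed per gate and mouse and tested with edgeR 4.0.16 (quasi-likelihood, TMM, filterByExpr, Benjamini-Hochberg over all genes tested, threshold 0.05) in R 4.3.3; DESeq2 1.42.0 was an alternative. The summaries used Python 3.11.15. Code was tested on simulated data. With 2 mice per group, an exact permutation test of a single value cannot go below p = 0.333, so none was used. Populations under 20 cells per mouse were not tested. Totals of the summed populations ran from 1118545 UMIs (stellate, corn oil 2) to 30303345 (endothelial, corn oil 1); mesothelial sums were 62347 to 232621. Confidence intervals are exact 95% Poisson intervals, and the floor is 3 counts.

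The members and lists were chosen with earlier results of these data known. Named genes were all members, the called genes of each list (at most 4 per list and direction in each population) and, per member, those of most similar profile, of which the text names up to 3 for 4 members. A gene of the lists is counted but not reported here by name. Mixed-cell removal, gate thresholds, mitochondrial limit, thinning, filtering, normalization and leaving out each mouse were alternatives. Keeping stellate-endothelial joint cells, contractile-low cells alone, endothelial zones and removal of the top Aldh1a1 cell were chosen after seeing the data.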

Additional observations from a re-analysis of the deposited data

Results flagged for a closer look

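The CCl4 effect was called different between populations for 2 members, each by a test of the difference itself. For stellate minus Kupffer this was 1 of 8 members tested, where 3.03% of all genes were called. For endothelial minus Kupffer it was 1 of 8, where 3.36% of all genes were. Kupffer Aldh1a1 rested on 31, 45, 15 and 11 UMIs. Stricter gating left 11, 17, 2 and 2, below the floor of 3 counts in both CCl4 mice. Its fall in Kupffer cells was not called after thinning before gating. The effect on Aldh1a1 was higher in stellate than in Kupffer cells by 2.33 on the log2 scale (SE 0.51, adjusted p = 0.0430 by edgeR), and it was not called without corn oil 2 (1.56), CCl4 1 (2.20) or CCl4 2 (2.43). The effect on Rara was higher in endothelial than in Kupffer cells by log2 0.92 (SE 0.21, adjusted p = 0.0447 by edgeR), from 48.4 and 45.9 to 59.8 and 55.9 CPM in endothelial cells and from 46.2 and 34.7 to 25.7 and 26.2 CPM in Kupffer cells. That call was lost when any 1 of the 4 mice was left out (0.76 to 1.07).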

How the results depend on the processing

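With 2 mice a group, counts of calls moved with the mice and the gates. Over all member comparisons and alternatives, 541 values kept direction and side of the threshold, 27 newly passed it, 32 no longer passed it and 29 reversed; except where stated, the cause was not tested. Genes called in stellate cells were 333, with 1401 and 2 members under no filter on low counts, 16 to 1212 and 0 to 2 members when 1 mouse was left out, 73 at 15% mitochondrial UMIs, 980 and 1 member under stricter removal of mixed cells, 989 and 1 member without Ecm1, 45 and 543 with gates at 5 and 20 UMIs, 1660 and 2 members with joint cells kept, and 62 in contractile-low cells. In endothelial cells they were 1195, with 2657 and 4 members without the filter and 237 to 1158 and 0 to 1 members when 1 mouse was left out; DESeq2 called 2 members, and 0 were called at 15% mitochondrial UMIs, after thinning and without the top Aldh1a1 cells. In Kupffer cells they were 1430, with 802 and 1 member in DESeq2, 658 to 1272 and 1 to 2 members when 1 mouse was left out, 617 and 1 member after thinning and 941 and 1 member under stricter removal. For differences of effects without the filter, 1281 genes and 2 members (stellate minus endothelial), 1100 and 2 (stellate minus Kupffer) and 1090 and 3 (endothelial minus Kupffer) were called, against 575, 368 and 408. Leaving out 1 mouse gave 104 to 731, 12 to 347 and 28 to 277 genes, with 0 to 1 members for stellate minus Kupffer and 0 members in each of the 4 fits for endothelial minus Kupffer, and stricter removal gave 1 member for stellate minus endothelial. Counts between cell types stayed within 1.5 times. For the CCl4 effect in endothelial cells, DESeq2 called 1722 genes beside its 2 members. There 1177 genes were called at 15% mitochondrial UMIs, 1102 after thinning and 1062 without the top Aldh1a1 cells, each with 0 members. The number of genes tested in each alternative is not given here, so these member counts are not set against a share of all genes.

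Reversed values, log2: Lrat in stellate cells was -0.26 without corn oil 1, -0.050 without CCl4 2, -0.24 thinned, -0.32 under stricter removal, -0.38 without Ecm1, and -0.10 and -0.031 with gates at 5 and 20 UMIs. Aldh1a1 there was 0.22 without corn oil 1, 0.24 without CCl4 2 and 0.24 with joint cells kept, and Rxra was 0.015 without CCl4 2. When 1 mouse was left out, these 3 ranged from -0.26 to 0.43 (Lrat), -0.499 to 0.24 (Aldh1a1) and -0.49 to 0.015 (Rxra). Without corn oil 2, Cyp26b1 was 0.89 in endothelial cells, 0.63 in Kupffer cells, 0.035 for stellate against Kupffer and 0.46 for the effect in stellate minus endothelial; the other ends of these ranges were -1.74, -3.88, -0.58 and -0.5025. Rara, stellate against endothelial, was -0.065 with no filter and -0.053 without corn oil 1 (up to 0.14 when another mouse was left out). Aldh1a2, endothelial against Kupffer, was -0.64 under stricter removal and -0.44 without corn oil 2 (up to 3.34). Under stricter removal, effects in stellate minus endothelial were 0.34 for Dhrs3, -0.17 for Rdh10 and -0.0063 for Rxra, those in stellate minus Kupffer were 0.024 for Dhrs3 and -0.031 for Rxra, and that of Rxra in endothelial minus Kupffer was -0.025. Aldh1a2, stellate minus Kupffer, was -3.34 without corn oil 1 and -0.47 without CCl4 2 (up to 5.57), and endothelial minus Kupffer 0.89 without CCl4 1 (down to -8.505). Lrat, endothelial minus Kupffer, was -0.019 without corn oil 2 (up to 0.64).

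The mouse numbers name samples and do not pair them; with 2 pairs, the same-number correlations of deviations were 0.105, 0.101 and 0.140 in stellate, endothelial and Kupffer cells. With the replicate block, 747 genes and 1 member were called in stellate cells, 2334 and 2 in endothelial cells, and 2281 and 4 in Kupffer cells. Tests in mesothelial cells and their alternatives were not run, nor were contractile tests at 0.1% and 0.2%, because too few mice had 20 cells.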
